A study of Mus musculus with 12 samples.

Results

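The vacuolar proton pump genes described here are 10 subunit genes, Atp6v1a, Atp6v1b2, Atp6v1c1, Atp6v1d, Atp6v1h, Atp6v0a1, Atp6v0c, Atp6v0d1, Atp6v0d2 and Atp6ap1, of 25511 genes in the deposited expression table. They were named as a list because their RNA was higher in conditioned than in unconditioned medium in these same libraries, so their medium effects are a description: calls on that contrast are counted beside those of all genes and support nothing. All 10 were found by symbol and all 10 passed the filter on low counts.

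RNA was sequenced from primary osteoblasts that collagenase had released from the skull bones of newborn C57Bl/6J mice. By their titles the 12 samples form 4 groups of 3: KO (F2rl1 -/-) in conditioned medium, KO in unconditioned medium, WT in conditioned medium and WT in unconditioned medium. In the last group, 1 sample titled WT carries the genotype label F2rl1 -/-, and it could not be told which library is that sample. F2rl1 codes for protease-activated receptor-2 (PAR2), a receptor that proteases switch on by cutting it, and the series asks what it adds when bone-forming cells meet substances shed by prostate tumour cells. After 48 h of culture, cells spent 4 days in BRFF-HPC1 medium with 20% serum or in medium that cultures of MDA-PCa-2b, a line derived from human prostate cancer, had conditioned for 48 h. No source used here says how the F2rl1 allele was made, which part of the gene it lacks, or whether samples are single animals or pools.

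Libraries held 15023994 to 16956754 fragments. Libraries 0 and 1 of the unconditioned WT group differed by less than the sampling noise and were counted as 1, which left 11 libraries. F2rl1 itself had 31, 13 and 12 fragments in the conditioned KO-labelled libraries, 33, 33 and 46 in the unconditioned KO-labelled ones, 14, 23 and 14 in the conditioned WT-labelled ones and 25 and 20 in the unconditioned WT-labelled ones. These low counts did not set the genotypes apart, so genotype is used here only as a label. Of the osteoblast markers, Col1a1 had 6654 to 22126 CPM (fragments scaled to library size) and Runx2 70.1 to 96.5 CPM, whereas Bglap and Ibsp stayed below 1 CPM in every library.

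The vacuolar proton pump (V-ATPase) is a rotary motor. Its V1 sector splits ATP on the cytosolic side of a membrane, and its Vo sector carries protons across, which acidifies lysosomes and endosomes. Bone-resorbing osteoclasts also place the pump in their outer membrane and use the acid to dissolve bone mineral. The pump on lysosomes also works with the Ragulator and Rag proteins that report nutrients to the kinase mTORC1. The factors TFEB, TFE3 and MITF are known to bind CACGTG-type motifs in front of many lysosomal genes.

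For that reason the promoters were searched, on both strands, for CACGTG, for its flanked form TCACGTGA, which contains it, and for TCATGTGA. The RefSeq table (GRCm38.p6), with windows from 250 bases before to 50 bases after a gene's start, held 6 of the 10 members. CACGTG and TCACGTGA were found in Atp6v0d1 and Atp6v1a, and TCATGTGA in a window of Atp6v0c, 1 of the 3 such windows that the table gives for this gene. Each window is set on a transcript start of that table, which for Atp6v1a and Atp6v0c lies inside the outermost gene ends given below, so there the motif is within the annotated gene. TCACGTGA began 4 bases before that start for Atp6v0d1 and 132 before it for Atp6v1a, and TCATGTGA 17 before it for Atp6v0c. Of 13 other subunit genes in the table, Atp6v0b held 2 copies of CACGTG, which began 36 and 18 bases before its start, and Atp6v0e held TCACGTGA just after its start. Over all 27025 genes in that table, 8.09% had CACGTG, 1.12% TCACGTGA and 1.15% TCATGTGA in a window. A match describes these letters and was not tied to binding. The windows that hold the motifs, except that of Atp6v0e, are shown with the motifs in capitals, 5′ to 3′ along the gene, all on the minus strand: chr8:105566015-105566314 for Atp6v0d1, chr16:44139210-44139509 for Atp6v1a, chr17:24169401-24169700 for Atp6v0c and chr4:117887280-117887579 for Atp6v0b.
Atp6v0d1: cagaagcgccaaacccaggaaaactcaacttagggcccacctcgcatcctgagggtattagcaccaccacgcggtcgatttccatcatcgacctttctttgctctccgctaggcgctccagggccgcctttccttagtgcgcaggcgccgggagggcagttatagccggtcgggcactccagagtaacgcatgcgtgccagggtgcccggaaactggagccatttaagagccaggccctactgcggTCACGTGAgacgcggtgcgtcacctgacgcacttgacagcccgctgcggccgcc
Atp6v1a: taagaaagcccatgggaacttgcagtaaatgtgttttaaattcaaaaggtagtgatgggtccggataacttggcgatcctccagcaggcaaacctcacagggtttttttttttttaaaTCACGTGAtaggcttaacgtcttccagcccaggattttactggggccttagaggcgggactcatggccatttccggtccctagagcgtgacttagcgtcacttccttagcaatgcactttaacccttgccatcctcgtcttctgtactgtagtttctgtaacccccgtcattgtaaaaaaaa
Atp6v0c: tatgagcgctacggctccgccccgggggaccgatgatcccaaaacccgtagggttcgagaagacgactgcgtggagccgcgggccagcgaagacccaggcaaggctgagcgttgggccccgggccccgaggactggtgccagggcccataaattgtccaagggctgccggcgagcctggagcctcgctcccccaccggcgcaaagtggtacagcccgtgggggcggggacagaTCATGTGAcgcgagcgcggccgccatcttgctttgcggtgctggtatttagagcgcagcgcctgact
Atp6v0b: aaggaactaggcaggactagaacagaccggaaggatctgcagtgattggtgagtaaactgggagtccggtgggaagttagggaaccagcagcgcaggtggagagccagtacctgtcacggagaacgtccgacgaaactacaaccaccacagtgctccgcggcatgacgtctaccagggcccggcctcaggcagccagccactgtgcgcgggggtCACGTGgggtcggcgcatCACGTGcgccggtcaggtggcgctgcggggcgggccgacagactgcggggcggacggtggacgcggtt

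The first comparison sets conditioned against unconditioned medium. Pooled over the genotype labels, all 10 members were higher in conditioned medium, with log2 changes from 0.70 for Atp6v0a1 to 2.21 for Atp6v0d2 and a median of 0.997, against a median of 0.02 over the 13603 genes tested. By edgeR's quasi-likelihood test (Benjamini-Hochberg adjusted p under 0.05), 10 of 10 were called higher in the pooled comparison, where 10.4% of all genes were. In KO-labelled cells 9 of 10 were called higher, where 9.67% of all genes were, and in WT-labelled cells 5 of 10, where 1.23% were. The WT count of 5 was 2 with library number as a replicate block, 9 without both KO-labelled libraries 0, and 0 to 8 when 1 library was left out, with 0 without unconditioned WT-labelled library 0 or 2. Because the members were chosen from this contrast, nothing is read from these counts. In bulk RNA, fewer cells of a type and less RNA per cell cannot be told apart. Gene positions below are those of RefSeq on GRCm38.p6.

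**Figure D1:**
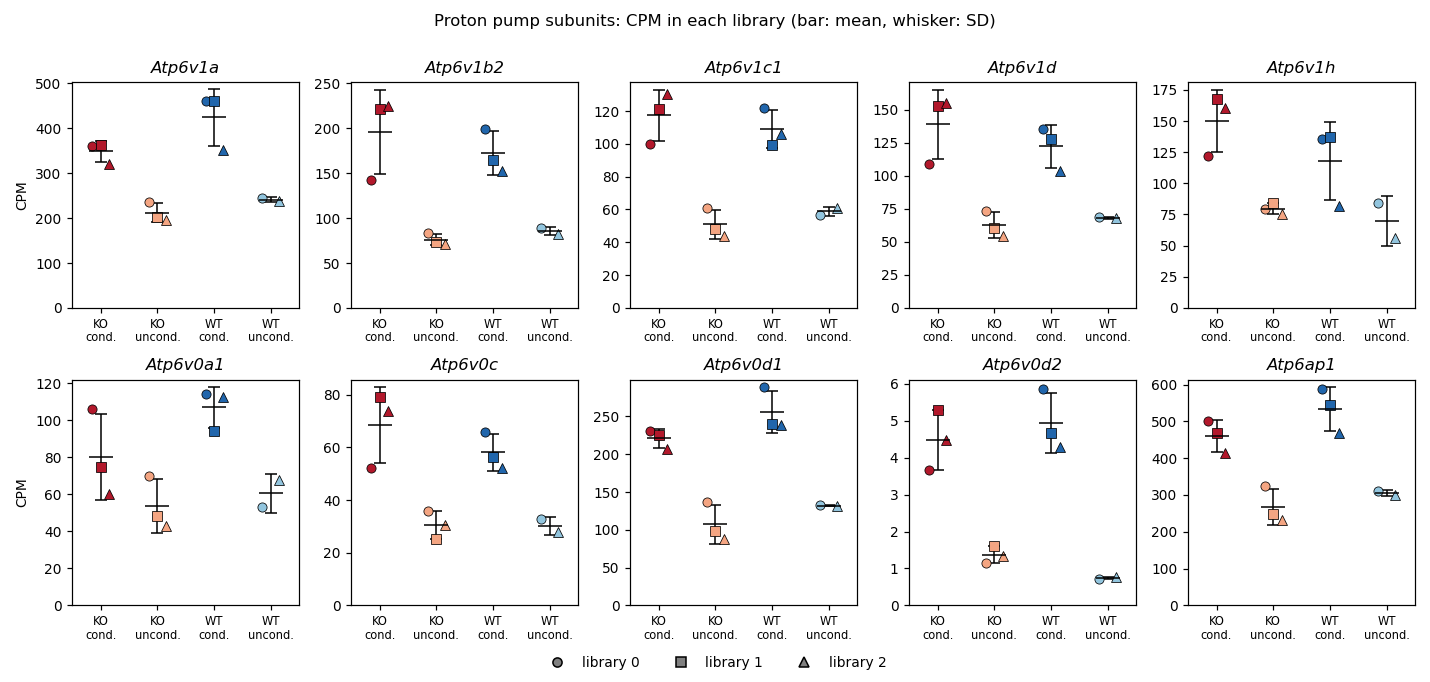
CPM of each of the 10 proton pump genes (vertical axes from 0) in the 11 libraries, in KO-labelled conditioned, KO-labelled unconditioned, WT-labelled conditioned and WT-labelled unconditioned groups; symbols mark libraries 0, 1 and 2, horizontal bars the mean and whiskers the SD. Conditioned libraries lie above unconditioned ones of the same label in every panel except Atp6v1h in WT and Atp6v0a1 in KO, where the groups overlap.

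The V1 genes come first. Atp6v1a (chr16:44085402-44139702) codes for the catalytic A subunit, which splits ATP. It had 361, 363 and 321 CPM in the conditioned and 236, 203 and 197 CPM in the unconditioned KO-labelled libraries 0, 1 and 2. In WT-labelled libraries it had 461, 460 and 350 CPM in conditioned medium and 245 and 237 CPM in unconditioned medium. The medium groups did not overlap under either label, and the pooled log2 change was 0.77 ± 0.10 (SE). Atp6v1b2 (chr8:69088736-69113718, where the deposited row begins upstream at 69037708) codes for the widely used isoform of the B subunit, which also binds nucleotide. It had 142, 221 and 225 CPM in the conditioned and 83.2, 73.3 and 71.7 CPM in the unconditioned KO-labelled libraries. The WT-labelled libraries had 199, 164 and 152 CPM in conditioned medium and 88.8 and 82.3 CPM in unconditioned medium. The groups again did not overlap, although conditioned KO-labelled library 0 lay well under libraries 1 and 2, and the pooled log2 change was 1.19 ± 0.14.

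Atp6v1c1 (chr15:38661904-38692444) codes for the C subunit, which clamps V1 to Vo when the pump assembles. It averaged 117 ± 15.7 CPM in conditioned and 51.0 ± 8.89 CPM in unconditioned KO-labelled libraries (SD, n = 3 each). Among WT-labelled libraries it averaged 109 ± 11.4 CPM in conditioned (n = 3) and 58.8 ± 2.87 CPM in unconditioned medium (n = 2). The groups did not overlap, and the pooled log2 change was 1.05 ± 0.11. Atp6v1d (chr12:78842982-78862008) codes for the rotor shaft. It had 109, 153 and 155 CPM in the conditioned and 73.1, 60.3 and 54.1 CPM in the unconditioned KO-labelled libraries. In WT-labelled libraries it had 135, 128 and 104 CPM in conditioned medium and 68.5 and 67.8 CPM in unconditioned medium. These groups did not overlap either, and the pooled log2 change was 0.997 ± 0.13.

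Atp6v1h (chr1:5082978-5163213) codes for the H subunit, which keeps V1 from splitting ATP while it is detached. It had 122, 168 and 161 CPM in the conditioned and 79.0, 84.4 and 75.5 CPM in the unconditioned KO-labelled libraries. The WT-labelled libraries had 136, 137 and 82.2 CPM in conditioned medium and 84.2 and 55.9 CPM in unconditioned medium. The WT-labelled groups overlapped, since conditioned library 2 lay under unconditioned library 0, and the pooled log2 change was 0.83 ± 0.17. The WT log2 change of 0.76 was 0.49 without unconditioned WT-labelled library 2 and 1.08 without unconditioned WT-labelled library 0.

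The Vo genes follow. Atp6v0a1 (chr11:101009422-101063719) codes for an isoform of the large a subunit, which holds the proton channels. It had 106, 74.6 and 60.2 CPM in the conditioned and 70.0, 48.2 and 42.7 CPM in the unconditioned KO-labelled libraries. Among WT-labelled libraries it had 114, 94.3 and 113 CPM in conditioned medium and 53.2 and 67.8 CPM in unconditioned medium. The KO-labelled groups overlapped and the WT-labelled ones did not, and the pooled log2 change of 0.70 ± 0.18 was the smallest of the 10. Its log2 change in KO-labelled cells was 0.58 and not called, and 0.33 without conditioned library 0. Between KO-labelled libraries of the same number the conditioned CPM was 1.51, 1.55 and 1.41 times the unconditioned. Such ratios were also even for Atp6v0d2 (3.19, 3.26 and 3.32) but uneven for Atp6v1b2 (1.71, 3.01 and 3.13). With the number as a replicate block the change of 0.57 ± 0.11 was called, where 7.59% of all genes were called higher. The numbers are not tied to sample titles and may not mark pairs, so nothing is read from that call. Atp6v0c (chr17:24163865-24169678) codes for a proteolipid of the rotor ring. It averaged 68.4 ± 14.4 CPM in conditioned and 30.5 ± 5.43 CPM in unconditioned KO-labelled libraries (SD, n = 3 each). In WT-labelled libraries it averaged 58.1 ± 7.17 CPM in conditioned (n = 3) and 30.2 ± 3.51 CPM in unconditioned medium (n = 2). The groups did not overlap, and the pooled log2 change was 1.05 ± 0.14. Its row also holds a pseudogene transcript, listed at 0 fragments, and reads shared by such copies make the value uncertain.

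Atp6v0d1 and Atp6v0d2 code for alternative d subunits, which join the shaft to the ring: the d1 form is found in most cells and the d2 form is known from osteoclasts, where in mice it also serves cell fusion. Atp6v0d1 (chr8:105524461-105566064) had 230, 225 and 207 CPM in the conditioned and 137, 98.2 and 87.8 CPM in the unconditioned KO-labelled libraries. The WT-labelled libraries had 288, 240 and 239 CPM in conditioned medium and 132 and 132 CPM in unconditioned medium. The groups did not overlap, and the pooled log2 change was 0.997 ± 0.12. Atp6v0d2 (chr4:19876838-19922566) was rare: it had 59, 87 and 83 fragments in the conditioned and 17, 23 and 20 in the unconditioned KO-labelled libraries. Among WT-labelled libraries it had 91, 69 and 65 fragments in conditioned medium and 11 and 11 in unconditioned medium. Every conditioned library lay above every unconditioned one, and the log2 change was 1.70 ± 0.25 in KO-labelled cells, 2.71 ± 0.31 in WT-labelled cells and 2.21 ± 0.20 pooled, the largest of the 10.

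Atp6ap1 (chrX:74297097-74304721) codes for a glycosylated accessory subunit that assists pump assembly. It averaged 461 ± 43.1 CPM in conditioned and 267 ± 49.3 CPM in unconditioned KO-labelled libraries (SD, n = 3 each). In WT-labelled libraries it averaged 534 ± 60.9 CPM in conditioned (n = 3) and 306 ± 7.88 CPM in unconditioned medium (n = 2). The groups did not overlap, and the pooled log2 change was 0.79 ± 0.12. Counted over the members, the conditioned libraries lay wholly above the unconditioned ones for 9 of 10 genes in KO-labelled and 9 of 10 in WT-labelled cells, where 15.8% and 21.8% of all tested genes did so. Over both labels it was 8 of 10, all but Atp6v1h and Atp6v0a1, where 7.98% of all genes did so. As the rule used this contrast, nothing is read from these counts either.

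Markers of other cell types moved in part with the medium. Of the osteoclast list all 11 genes were in the table, and their summed level was 326 to 464 CPM in conditioned and 185 to 224 CPM in unconditioned KO-labelled libraries. In WT-labelled libraries the sum was 301 to 447 CPM in conditioned and 168 to 179 CPM in unconditioned medium. Most of this was Ctsk, a protease that fibroblasts and osteoblast-lineage cells also make, which was called higher (pooled log2 change 1.39 ± 0.19, edgeR adjusted p = 0.0015). Of the others, Nfatc1 had 31.4 to 59.1 CPM and Itgb3 13.7 to 25.8 CPM, both also made by other cells, and neither was called. Mmp9 had 0.066 to 4.70 CPM, up to 73 fragments, with the highest in a conditioned WT-labelled library, Tnfrsf11a 0.27 to 1.13 CPM and Car2 0.34 to 1.33 CPM. The remaining genes were low: Dcstamp had 0 fragments in every library, Calcr at most 3, Ocstamp at most 5 and Oscar at most 9, and Acp5 had 0.99 to 2.12 CPM. In all, 4 of the 11 had under 10 fragments in every library. In the pooled comparison 1 of 7 tested, Ctsk, was called higher, where 10.4% of all genes were. A level of 0 fragments in bulk RNA does not show that no osteoclast was present.

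For macrophages and leukocytes, 17 of 18 genes were in the table. Their summed level was 53.2 to 137 CPM in conditioned and 58.0 to 89.4 CPM in unconditioned KO-labelled libraries, and 117 to 156 CPM in conditioned and 71.0 to 107 CPM in unconditioned WT-labelled libraries. The largest part of these sums was Lyz2, at 31.7 to 96.3 CPM. Fcer1g and Cybb were called higher in the pooled comparison, 2 of 14 tested, where 10.4% of all genes were. Of the 14, 7 had a pooled log2 change above 0, and the lowest was -1.07. Aif1 and Cx3cr1 had under 10 fragments in every library. For endothelium, Kdr and Tek were called higher, 2 of 3 tested, against the same 10.4% of all genes. That list summed to at most 15.3 CPM, while Pecam1, Emcn and Cldn5 had under 10 fragments everywhere. Of the osteoblast list 9 genes were tested and Alpl was called lower (log2 change -1.43 ± 0.34, edgeR adjusted p = 0.018). The share of all genes called lower was not counted, so nothing is read from that call. Only 1 of the 9 had a pooled log2 change above 0, with a median of -0.34. The osteoblast list summed to 19463 to 26343 CPM in conditioned and 29163 to 49327 CPM in unconditioned KO-labelled libraries. In WT-labelled libraries it summed to 20646 to 33612 CPM in conditioned and 30233 to 34176 CPM in unconditioned medium. Skeletal muscle markers were uneven within groups, at 135 CPM in conditioned WT-labelled library 1 against 16.7 and 22.6 CPM in its group, and at 207 against 30.9 CPM in the unconditioned WT-labelled libraries, and 0 of 6 were called. Of the keratinocyte list 4 were tested, and Trp63 was called lower, again with no share of all genes to set beside it. The part of these cell types in the pump genes' levels was not tested.

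Levels of different subunits can be set side by side only per length, as FPKM (fragments per kilobase of transcript, scaled to library size). In conditioned KO-labelled libraries the order of mean FPKM was Atp6ap1 (196 ± 12.7), Atp6v0d1 (132 ± 5.68), Atp6v1d (97.2 ± 19.3), Atp6v1a (80.4 ± 4.81), Atp6v1h (74.7 ± 13.5), Atp6v1b2 (66.7 ± 16.7), Atp6v0c (60.2 ± 13.2), Atp6v1c1 (53.2 ± 7.64), Atp6v0a1 (18.3 ± 4.97) and Atp6v0d2 (1.65 ± 0.37; SD, n = 3). Neighbours from Atp6v1d to Atp6v1c1 overlapped in their libraries, whereas Atp6ap1 and Atp6v0d1 stood above the rest and Atp6v0a1 and Atp6v0d2 below. Atp6ap1 and Atp6v0d1 were also the top pair, and Atp6v1c1, Atp6v0a1 and Atp6v0d2 the last in order, in the other 3 groups. In unconditioned KO-labelled libraries the libraries of Atp6v0d1 overlapped those of Atp6v1a, the next in order. A complete pump needs several copies of some subunits and 1 of others, so these levels give no pump number.

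**Figure D2:**
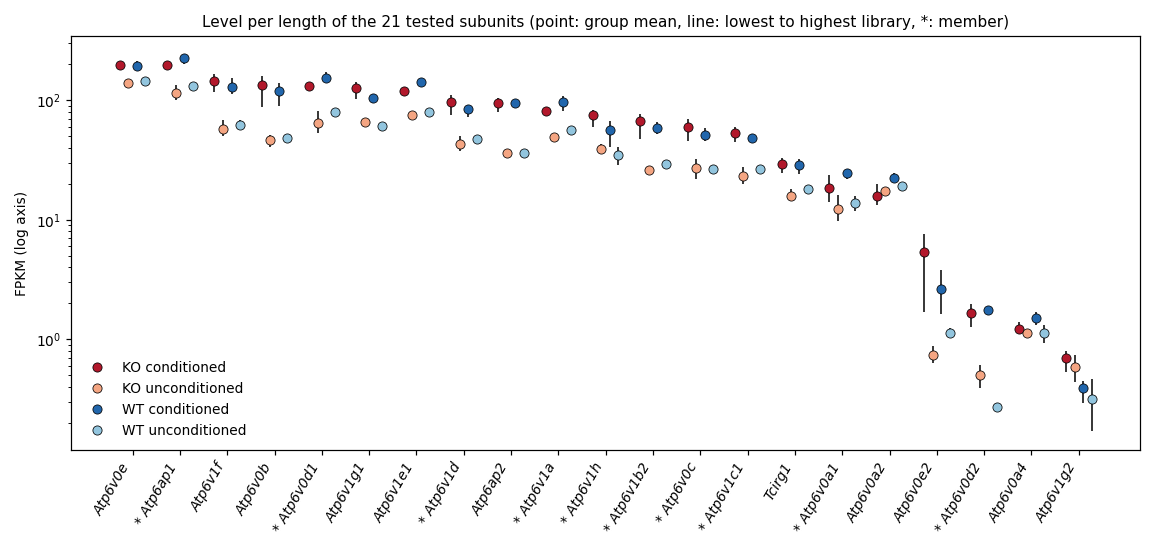
FPKM on a log axis of the 21 proton pump subunits tested, ordered by their mean in conditioned KO-labelled libraries; points are group means, lines run from the lowest to the highest library, and asterisks mark the 10 members. Atp6ap1 leads the members at 196 in conditioned KO-labelled libraries, and Atp6v0d2 lies lowest among them at 1.65.

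Within the d subunits, Atp6v0d2 made up 1.23 ± 0.27% of summed d1 and d2 FPKM in conditioned and 0.82 ± 0.29% in unconditioned KO-labelled libraries (SD, n = 3 each). In WT-labelled libraries its share was 1.13 ± 0.056% in conditioned (n = 3) and 0.34 ± 0.025% in unconditioned medium (n = 2). In every library the d2 form stayed at or below 1.45% of the d subunit FPKM. Of the 4 isoforms of the a subunit, 3 each held between 21.7% and 51.3% of the summed FPKM of all 4 in every library. Atp6v0a1 held 28.1 ± 5.32% of their summed FPKM in conditioned and 26.2 ± 3.43% in unconditioned KO-labelled libraries, and 31.9 ± 3.98% in conditioned and 26.4 ± 3.35% in unconditioned WT-labelled libraries. The libraries of the medium groups overlapped under both labels. Atp6v0a2, an isoform of the Golgi and endosomes, held 24.4 ± 3.83% in conditioned and 37.5 ± 2.82% in unconditioned KO-labelled libraries, and 29.1 ± 2.32% in conditioned and 36.6 ± 1.99% in unconditioned WT-labelled libraries. Its share was lower in every conditioned library than in every unconditioned one, while its CPM was not called in the pooled comparison. Tcirg1, the a3 isoform on which osteoclasts depend for acid secretion, held 35.5%, 50.1% and 51.3% in conditioned KO-labelled libraries 0, 1 and 2 and 33.9 ± 0.27% in unconditioned ones. In WT-labelled libraries Tcirg1 held 37.0 ± 3.13% in conditioned and 34.9 ± 1.74% in unconditioned medium, and those libraries overlapped. Atp6v0a4, an isoform of kidney and inner ear whose row is shared with a neighbouring gene, held 1.93% to 2.45% on average.

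The other subunits were counted in the same fit. Of 15 such genes 11 were tested, 8 were called higher in the pooled comparison and 0 lower, with a median log2 change of 0.76, where 10.4% of all genes were called higher. In KO-labelled cells 8 were called higher, where 9.67% of all genes were, and in WT-labelled cells 5, where 1.23% were. Atp6v0b, another ring proteolipid, was higher by 1.44 ± 0.18, and Atp6ap2, an accessory subunit also known as the prorenin receptor, by 1.42 ± 0.10 (log2, pooled, edgeR adjusted p = 0.0013 and 2.0e-04). Atp6v1f, part of the rotor shaft, was higher by 1.19 ± 0.13, and Atp6v1g1 and Atp6v1e1, which form the outer stalks, by 0.91 ± 0.10 and 0.74 ± 0.08. Tcirg1 was higher by 0.76 ± 0.10 and Atp6v0e, a small Vo subunit, by 0.49 ± 0.07. The largest change was that of Atp6v0e2, at 2.03 ± 0.39, with 3.48, 14.6 and 12.6 CPM in conditioned and 1.35, 1.69 and 1.21 CPM in unconditioned KO-labelled libraries. Its WT-labelled libraries had 4.96, 7.29 and 3.11 CPM in conditioned medium and 2.102 and 2.31 CPM in unconditioned medium. The 3 genes not called were Atp6v0a2 at 0.06 ± 0.12, Atp6v1g2 at 0.28 ± 0.32 and Atp6v0a4 at 0.29 ± 0.11. Atp6v1b1, Atp6v1c2, Atp6v1e2 and Atp6v1g3, forms known from kidney, epididymis, testis and other specialised cells, had at most 3 fragments in any library and were not tested.

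**Figure D3:**
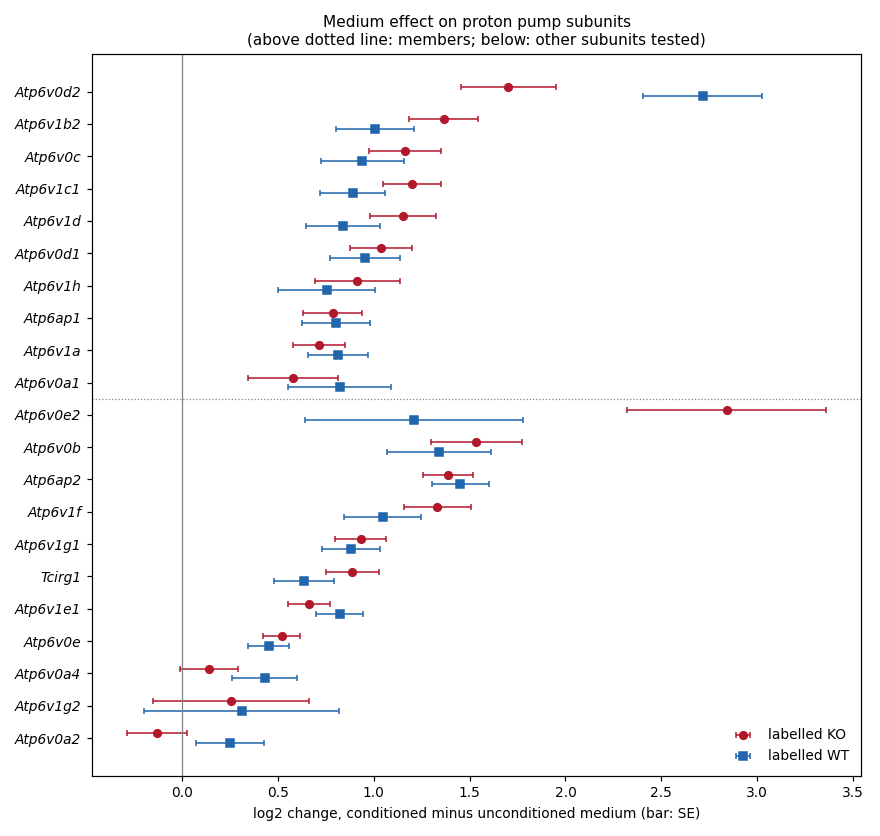
Log2 change between conditioned and unconditioned medium (horizontal axis) for the 10 members, above the dotted line, and 11 other tested subunits, below it, in cells labelled KO (circles) and WT (squares); bars are the SE. All members lie to the right of 0 under both labels, from 0.58 to 2.71, and Atp6v0e2 in KO-labelled cells lies farthest to the right, at 2.84.

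Further lists are read against the 10.4% of all genes called higher in the pooled comparison. Of 13 assembly and regulatory factors 12 were tested and 4 were called higher, with a median of 0.13. They were Wdr7, which with Dmxl2 forms an assembly factor of the pump, at 0.74 ± 0.08, Tmem199 at 0.73 ± 0.14, Rnasek at 0.64 ± 0.13 and Dmxl2 itself at 0.50 ± 0.11. Of 12 ion carriers that act beside the pump in lysosomes and endosomes 6 were called higher and 0 lower, with a median of 0.46. The largest were the calcium channel Mcoln1 at 1.51 ± 0.19, the chloride exchanger Clcn7 at 1.42 ± 0.17, its partner Ostm1 at 1.15 ± 0.14 and Clcn6 at 0.80 ± 0.15. Of 13 genes of the nutrient-sensing complex and its MiT/TFE factors 7 were called higher and 0 lower, with a median of 0.60. Rragd, a Rag GTPase, was highest at 3.71 ± 0.43, followed by Rragb at 2.07 ± 0.29, Rragc at 0.88 ± 0.12 and the Ragulator scaffold Lamtor1 at 0.88 ± 0.08. Tfeb, Tfe3 and Mitf were not called, at -0.19 ± 0.21, -0.04 ± 0.10 and -0.22 ± 0.12. These lists, too, were drawn up with earlier results of these data known.

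The second comparison sets KO-labelled against WT-labelled cells within each medium, and the third asks whether the medium effect differed between the labels (the interaction). By edgeR's quasi-likelihood test, 0 of 10 members were called in conditioned medium, where 0.0% of all genes were, 0 in unconditioned medium, where 0.00735% were, and 0 in the interaction, where 0.0% were. At an unadjusted p under 0.05 there were 0, 1 and 1 members, and 1897, 294 and 414 of the 13603 genes, and DESeq2 and limma on log2 FPKM also called 0 in each. In conditioned medium the log2 differences ran from -0.42 for Atp6v0a1 to 0.34 for Atp6v1h, with SEs of 0.14 to 0.23 and edgeR adjusted p of 0.36 or more. In unconditioned medium they ran from -0.30 for Atp6v0d1 to 0.87 for Atp6v0d2, with edgeR adjusted p of 0.998 to 0.999. For 9 of the 10 members all 3 intervals of 95% included 0, the exception being Atp6v0d2. A missed threshold does not show that the labels were alike: for Atp6v0a1 in conditioned medium the interval ran from -0.94 to 0.10.

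Atp6v0d2 had the largest differences of the members in unconditioned medium and in the interaction, but not in conditioned medium, where its log2 difference was -0.14. In unconditioned medium it had 1.15, 1.62 and 1.35 CPM in KO-labelled libraries and 0.72 and 0.77 CPM in WT-labelled ones, which did not overlap. How many of all genes did so between the labels was not counted. The log2 difference was 0.87 ± 0.31 (95% interval 0.18 to 1.56, edgeR adjusted p = 0.998) and rested on 11 to 23 fragments a library. In conditioned medium it had 3.67, 5.29 and 4.47 CPM in KO-labelled libraries and 5.86, 4.66 and 4.30 CPM in WT-labelled ones, which overlapped. The interaction, the medium effect in KO-labelled minus that in WT-labelled cells, was -1.01 ± 0.39 (95% interval -1.87 to -0.15, edgeR adjusted p = 0.82). Neither difference passed the test over all genes.

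**Figure D4:**
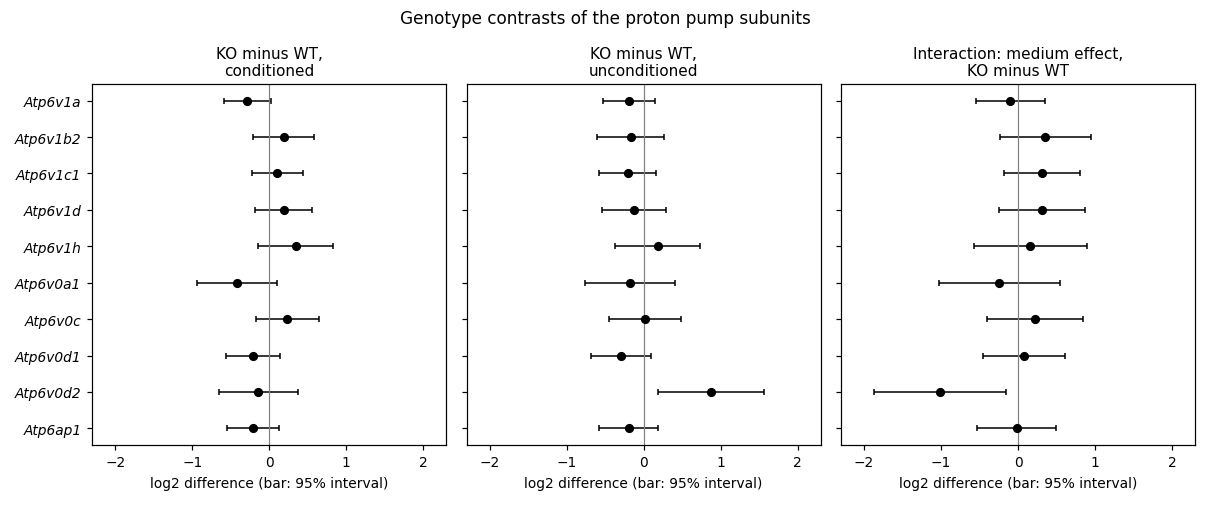
Log2 differences with 95% intervals (horizontal axes) of the 10 members between KO-labelled and WT-labelled cells in conditioned medium (left) and unconditioned medium (middle), and the interaction (right). Only the intervals of Atp6v0d2 in unconditioned medium and in the interaction leave out 0, and no member passed the test after adjustment over all genes.

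The conditioned KO-labelled libraries were not alike. Library 0 was the lowest of the 3 for 6 members, among them Atp6v1b2, Atp6v1d, Atp6v0c and Atp6v1h, and the highest for 3, Atp6v0a1, Atp6v0d1 and Atp6ap1. In unconditioned medium, KO-labelled library 0 was the highest of the 3 for 8 members. The same libraries stood apart in some marker sums but not in all. In conditioned KO-labelled libraries 0, 1 and 2 the osteoblast list summed to 26343, 25031 and 19463 CPM, which did not set library 0 apart. The osteoclast list summed there to 326, 464 and 440 CPM, and the macrophage and leukocyte list to 137, 94.9 and 53.2 CPM. The endothelial list summed to 7.96, 14.7 and 15.3 CPM, and the skeletal muscle list to 30.7, 46.8 and 30.6 CPM. The keratinocyte list summed to 54.8 CPM in conditioned library 0 against 29.0 and 26.7 CPM in libraries 1 and 2. Most of this sum was Perp, at 53.1 CPM in library 0. Krt5 and Krt14 had 0 fragments in library 0, and Trp63 had 25 against 31 and 66. In unconditioned KO-labelled cells the keratinocyte list summed to 45.3 CPM in library 0 against 19.0 and 20.4 CPM. Perp again made up most of it, Krt5 and Krt14 had 0 fragments in library 0, and Trp63 had 32 against 56 and 95. The osteoblast list summed to 29163 against 48101 and 49327 CPM, mostly from Col1a1 and Col1a2. Of the 3 libraries, library 0 was lowest for Col1a1, Col1a2, Alpl and Postn, but highest for Runx2, Sp7 and Spp1. Sp7 had 604 fragments in library 0 against 453 and 350, and in conditioned KO-labelled libraries 490 against 52 and 32. The part of these cell types in the members' differences was not tested.

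Leaving out conditioned KO-labelled library 0 called 33.2% of all genes between the labels in conditioned medium, and 2 members with them: Atp6v0a1 lower (log2 difference -0.66 ± 0.22, edgeR adjusted p = 0.045) and Atp6v1b2 higher (0.38 ± 0.12, adjusted p = 0.039). Leaving out both KO-labelled libraries 0 called 42.5% of all genes and 4 members in conditioned medium, Atp6v0a1 lower and Atp6v1b2, Atp6v1d and Atp6v0c higher. In unconditioned medium it called 4.87% of all genes and Atp6v0d1, lower in KO-labelled cells (log2 difference -0.50 ± 0.12, edgeR adjusted p = 0.046). In the interaction it called 19.2% of all genes and 3 members, Atp6v1b2, Atp6v1c1 and Atp6v1d, with medium effects larger by 0.62 ± 0.17, 0.57 ± 0.15 and 0.60 ± 0.17 in KO-labelled cells. In conditioned medium these shares of members did not exceed the shares of all genes, and each of these calls was made only with a library 0 left out.

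Transcripts were resolved for 2 members. Atp6v1h had 3 start-site groups, which held 71.0%, 18.8% and 10.2% of its fragments over the 11 libraries. The smallest ranged from 0.36% to 22.6% among unconditioned KO-labelled libraries alone. The authors' deposited table tests its start-site use in 6 pairs of groups and marks 0 as significant, with q-values from 0.82 to 1.0. Of the other 9 members 7 had 1 transcript, and for Atp6v0c the transcript of the gene itself held 100.0% of the fragments.

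Atp6v0a1 had 2 transcripts from 1 start site with at least 5% of its fragments, of 3988 and 4009 bases. The longer held 9.28%, 13.3% and 4.27% in conditioned and 25.2%, 36.1% and 24.2% in unconditioned KO-labelled libraries. Among WT-labelled libraries it held 9.54%, 10.98% and 28.2% in conditioned medium and 34.9% and 25.9% in unconditioned medium. The KO-labelled groups did not overlap, and the WT-labelled ones did through conditioned library 2. How many of all transcripts were parted by medium in this way was not counted. These shares come from estimated counts for 2 transcripts of close length, and how many fragments told them apart is not given. The authors' deposited table tests splicing of this gene in the 6 pairs of groups and marks 1, conditioned KO against unconditioned WT, as significant (q = 0.0396). In that table the medium comparison had q = 0.155 for KO and q = 0.73 for WT, and 1.07% of all splicing tests were marked. Which libraries the authors' tests used is not given in the sources used here.

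**Figure D5:**
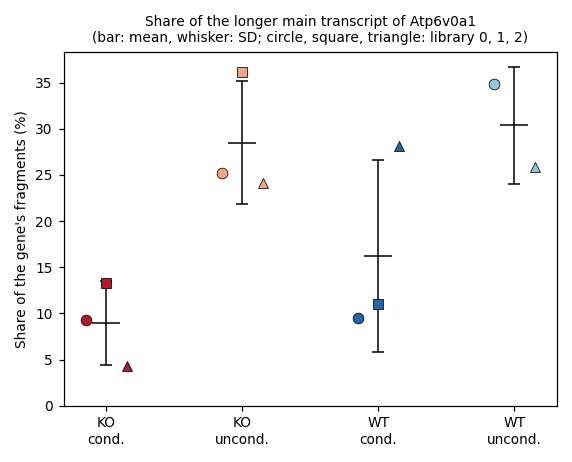
Percent of Atp6v0a1 fragments assigned to its longer main transcript (vertical axis from 0) in each library of the 4 groups; circles, squares and triangles are libraries 0, 1 and 2, bars the mean and whiskers the SD. The 3 conditioned KO-labelled libraries sit at 4.27% to 13.3%, below all unconditioned libraries, while conditioned WT-labelled library 2 sits at 28.2%.

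The 5 genes whose log2 CPM followed Atp6v0d2 most closely over the 11 libraries were Hexa (Pearson r = 0.979), a lysosomal hexosaminidase subunit, Acot13 (0.977), Cspg4 (0.977), Cpeb1 (0.976) and Bcas2 (0.974). Atp6ap2 came next, sixth of all genes, at 0.972. Among the other members the correlation ran from 0.913 for Atp6v1b2 to 0.672 for Atp6v0a1. These values are a description over libraries that share the medium contrast, and carry no test.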

How the data were processed

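The members and all gene lists were chosen with earlier results of these data known. The submitters' processing notes list Cuffdiff and Cufflinks (both 2.1.1), TopHat2 2.0.9 and CASAVA 1.8.2, and the build GRCm38 (mm10). The libraries do not mark strand, so antisense reads cannot be told apart. Per the file headers, the deposited fragment values are estimated counts per gene, start-site group or transcript, 94.3% of them whole. FPKM values were scaled between libraries by the authors. The authors' deposited tables of start-site use and splicing also hold a distance score, p-values and q-values. Lengths and positions are given per the file headers.

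Under R 4.3.3, edgeR 4.0.16 fitted the 4 groups to rounded fragments of the 13603 genes that filterByExpr kept, by robust quasi-likelihood after TMM scaling, with p-values adjusted by Benjamini-Hochberg over all genes, with 0.05 as threshold. The fit was checked on simulated data with the same spread for every gene and no library set apart. That check does not cover libraries that differ as the KO-labelled libraries 0 did. Genes without a symbol (1714, with 2.69% to 3.10% of fragments) were left out. The typical biological coefficient of variation was 0.238 and residual degrees of freedom were 7. Each SE is the absolute log2 change over the root of its F statistic. CPM are TMM-scaled. DESeq2 1.42.0 and limma 3.58.1 served as alternatives.

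Unconditioned WT libraries 0 and 1 had the same total and equal values for 91.0% of 15825 detected genes (chi-square 759 on 13761 degrees of freedom, against 91577 or more for every other pair within a group), so library 1 was left out. A sample titled WT in unconditioned medium but labelled F2rl1 -/- was kept in that group by its title; with the pair counted as 1, that group has 2 libraries, and which library is that sample is not known. Libraries of the same number deviated together in KO (correlations 0.27 to 0.36), but conditioned library 1 also did with unconditioned library 2 (0.32). In WT the values were -0.13 and 0.47. With 2 unconditioned WT libraries the deviations mirror each other, so these values cannot show pairing or its absence. The number therefore served as a block only in an alternative. The titles repeat the same sample numbers in both media, but the tables' library numbers are not tied to sample titles. No label says that samples are separate animals, so p-values measure only the spread between these samples.

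Named were all 10 members, other subunits called or with the largest or smallest medium effect, at most 4 called genes per other list by size of change, and the 5 genes closest to Atp6v0d2 by Pearson correlation of log2(CPM + 0.5).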

Additional observations from a re-analysis of the deposited data

How the results depend on the processing

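Since the members were chosen on the medium contrast, counts of their calls on it describe the fits and show no stability of a finding. Among alternative fits that left more than 1 library in each group, the pooled medium effect was called for 10 of 10 genes except in some that left out 1 library. With 1 library left out it was 9 to 10, where 6.06% to 20.9% of all genes were called higher. In the other fits 6.8% to 24.6% of all genes were. Atp6v0a1 was not called without unconditioned KO-labelled library 1 or 2 or conditioned WT-labelled library 0. In KO-labelled cells leaving out 1 library gave 6 to 10 members, where 1.56% to 22.9% of all genes were called higher. In WT-labelled cells the count moved most: 5 became 8 with DESeq2, 9 with all 12 libraries and 9 without both KO libraries 0. It was 1 to 8 when 1 library of a group of 3 was left out. Leaving out unconditioned WT-labelled library 0 or 2 leaves 1 library in that group, assumed to vary like the other groups, so those counts are not given. The member count was 1 without conditioned KO-labelled library 1, where 0.422% of all genes were called higher, or unconditioned KO-labelled library 1, where 0.428% were. It was also 1 without conditioned WT-labelled library 0, where 0.0959% were, or 1, where 0.435% were. Over all genes the share called higher in WT-labelled cells moved as well, from 1.23% to 3.26% with DESeq2, 3.76% with 12 libraries, 5.75% without both KO libraries 0 and 0.515% with the block. The member count was 2 without unconditioned KO-labelled library 2, where 0.523% of all genes were called higher. It was 8 without conditioned KO-labelled library 0, where 3.57% were, or conditioned WT-labelled library 2, where 1.65% were.

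With the replicate block, 2 members were called in WT-labelled, 10 in KO-labelled and 10 in pooled cells. The shares of all genes called higher there were 0.515%, 7.59% and 8.88%. With the block the interaction of Atp6ap1 was 0.0173, against -0.02 without it. The sample titles repeat the same numbers in both media, but the library numbers are not tied to those titles, so a pairing could not be set. Not every KO-labelled library correlated best with its own number. Without both KO libraries 0, 1 member was called between labels in unconditioned medium, 4 in conditioned medium and 3 in the interaction, and leaving out single libraries gave 0 to 0, 0 to 2 and 0 to 0. The cause was not tested.

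Signs turned only in small genotype differences that were not called. Atp6v0c in unconditioned medium (0.01) became -0.00047 and -0.00097 with limma on log2(FPKM + 1) and log2(FPKM + 0.1), -0.0214 with 12 libraries, -0.12 without both KO libraries 0, and ran from -0.12 to 0.14 with single libraries left out. So did Atp6v1h (-0.0788 to 0.51) and Atp6v0a1 (-0.41 to 0.0121) there, and Atp6v0d2 in conditioned medium (-0.27 to 0.0113). In the interaction Atp6ap1 was 0.0898 without both KO libraries 0 and ran from -0.11 to 0.14, Atp6v1h from -0.17 to 0.42 and Atp6v0d1 from -0.0454 to 0.29. The pooled log2 change of Atp6v0d2 was 0.96 on log2(FPKM + 1), against 2.21 in the count fit, because the pseudocount exceeds much of its level. In the window from 100 bases before to 50 after the start, CACGTG and TCACGTGA were each found in 1 member, Atp6v0d1, rather than 2. Depth limits Atp6v0d2, whose unconditioned libraries held 11 to 23 fragments.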
